A study of Rattus norvegicus with 172 samples.

Results

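The expression of 10 genes was followed across the livers of male Fischer rats given furan or 3-methylfuran: Magi3, Dennd4a, Tent2, Kdm6a, Mest, Nav2, Homer1, Fermt2, Arhgap24 and Adamtsl2. These 10 members, of 32883 gene rows counted, were chosen by the measured values themselves, for changes that were opposite or effects that differed between the compounds, and the choice names no dose. Their values at the top doses, and every difference between the compounds that is measured over controls, are therefore given as a description, with no test. Tests of the lower doses over control share their controls with these values, so they are not independent of the choice. Furan was given at 0.03, 0.12, 0.5 and 2.0 mg/kg body weight/day beside its own untreated controls, and 3-methylfuran at 0.02, 0.075 and 1.0 beside another set of controls, all for 90 days. Each group held 8 rats, except 7 at furan 0.5 and 7 at furan 2.0, so 38 rats belong to the furan experiment and 32 to the 3-methylfuran experiment. RNA came from frozen whole liver and messenger RNA was sequenced. No dose is shared by the compounds, and the library kit changed with the compound (TruSeq Stranded mRNA for 3-methylfuran, the later Stranded mRNA prep for furan). A difference between the experiments thus cannot be told apart from a difference between kits. The age of the rats is not given in the sources used here.

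Furan is a heated-food contaminant that liver cytochrome P450 oxidises to a reactive dialdehyde, and 3-methylfuran carries a methyl group on the furan ring. The genes do not form one pathway. Magi3 encodes a membrane-associated guanylate kinase scaffold found at cell junctions. Fermt2 (kindlin-2) activates integrins, Arhgap24 (FilGAP) is a filamin-binding protein that switches off Rac, Nav2 is a microtubule-associated navigator protein, and Homer1 is a scaffold that joins glutamate and inositol trisphosphate receptors. Dennd4a is an exchange factor for the trafficking protein Rab10. Tent2 (Gld-2) extends poly(A) tails of cytoplasmic messenger RNAs, and Kdm6a (Utx) removes methyl groups from lysine 27 of histone H3. Mest (Peg1) is an imprinted gene expressed from the paternal allele, and Adamtsl2 is a secreted protein that binds microfibrils in the extracellular matrix.

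The start sites of 4 of these genes are shown because each stands for a different dose pattern below. These are a step with 3-methylfuran (Magi3) and a graded change (Dennd4a). The others are values apart from control only at 3-methylfuran 1.0 (Mest) and higher medians along the furan doses (Adamtsl2). RefSeq promoters on GRCr8, each from 250 bases before to 50 bases after an annotated start, matched 6 of the 10 members. Positions are chr2:194405098-194405397 on the minus strand for Magi3, chr8:74217957-74218256 plus for Dennd4a, chr4:60321564-60321863 plus for Mest and chr3:30802450-30802749 plus for Adamtsl2. Capitals mark matches, on either strand, to 7 short motifs. The promoter elements searched were the GC box with the letters GGGCGG, the CCAAT box by the letters of its name, and the TATA box with the letters TATAAA. The factor sites searched were the E-box, which reads CACGTG, the cyclic AMP response element (CRE), which reads TGACGTCA, the AP-1 site, which reads TGANTCA, and the antioxidant response core, which reads TGACNNNGC.
Magi3: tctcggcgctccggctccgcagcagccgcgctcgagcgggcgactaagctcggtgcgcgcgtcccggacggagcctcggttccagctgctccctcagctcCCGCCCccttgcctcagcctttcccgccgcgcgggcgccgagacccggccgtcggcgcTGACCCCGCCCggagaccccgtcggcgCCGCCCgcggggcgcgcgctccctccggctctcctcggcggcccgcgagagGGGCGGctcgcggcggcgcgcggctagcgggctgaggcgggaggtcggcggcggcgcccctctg
Dennd4a: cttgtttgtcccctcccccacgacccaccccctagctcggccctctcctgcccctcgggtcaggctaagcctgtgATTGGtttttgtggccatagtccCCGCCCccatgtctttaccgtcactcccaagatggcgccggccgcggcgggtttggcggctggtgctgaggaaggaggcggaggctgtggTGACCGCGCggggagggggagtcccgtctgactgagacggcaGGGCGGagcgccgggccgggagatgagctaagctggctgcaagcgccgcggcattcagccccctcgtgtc
Mest: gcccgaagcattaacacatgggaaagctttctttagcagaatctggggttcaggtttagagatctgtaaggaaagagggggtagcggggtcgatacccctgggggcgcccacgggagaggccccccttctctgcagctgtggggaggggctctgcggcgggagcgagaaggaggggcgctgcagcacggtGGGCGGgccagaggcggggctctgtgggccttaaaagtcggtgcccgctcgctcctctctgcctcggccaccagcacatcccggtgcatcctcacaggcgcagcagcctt
Adamtsl2: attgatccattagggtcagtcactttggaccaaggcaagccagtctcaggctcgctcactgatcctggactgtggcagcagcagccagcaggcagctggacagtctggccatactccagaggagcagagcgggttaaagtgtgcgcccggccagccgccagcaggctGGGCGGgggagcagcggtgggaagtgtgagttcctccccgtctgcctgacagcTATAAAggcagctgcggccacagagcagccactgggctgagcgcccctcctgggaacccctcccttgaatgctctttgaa
The GC content was 81% for Magi3, 68.3% for Dennd4a, 64.7% for Mest and 62% for Adamtsl2, beside a median of 51.7% over all 33469 promoters of this length. Magi3 held 4 GC boxes, Dennd4a 2, and Mest and Adamtsl2 1 each; 33.1% of all promoters held at least 1. A TATA box lay 30 bases before the Adamtsl2 start, and none of the other 3 windows held these letters, which occur in 14.2% of promoters. An antioxidant response core was found in the windows of Magi3 (partly overlapping a GC box) and Dennd4a, and in 12.1% of promoters. The CCAAT box, present in 37.5% of promoters, was found in the Dennd4a window. The E-box, CRE and AP-1 letters, held by 6.42%, 1.83% and 7.33% of promoters, were in none of the 4 windows. No motif was in all 4 windows apart from the GC box, and a match is a description of the sequence only. Tent2 and Homer1 are adjacent protein-coding genes on chromosome 2 in this annotation, and Mest lies beside Copg2 on chromosome 4.

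All 10 members passed the filter on low counts in both experiments. The summed counts per rat ranged from 11.4 to 27.7 M (mega) counts in the furan experiment and from 11.1 to 50 M counts in the 3-methylfuran experiment, where the 0.075 group was deepest (median 24.2 M counts). Levels are given as CPM, the counts of a gene per M counts of the rat, after trimmed-mean (TMM) scaling within each experiment, so they are not compared between experiments unless stated. This scaling matters at the top doses, because it holds the median gene near 0: with plain library size the median log2 fold change of all genes moved from 0.02 to 0.42 at furan 2.0 and from near 0 to 0.25 at 3-methylfuran 1.0. Changes below are therefore relative to the typical gene of the same liver. Liver identity was checked by hepatocyte markers (Alb, Apoa1, Ttr, Serpina1, Cps1), whose summed level was at least 81900 CPM in every rat. That sum lay outside the control range of 138000 to 161000 CPM at furan 2.0 (81900 to 129000 CPM, 4 of 5 markers called lower). At 3-methylfuran 1.0 it was 133000 to 176000 CPM against 159000 to 180000 CPM in controls, with 3 of 5 called lower. Apoa1 was called higher at both top doses (0.85 and 1.13 on the log2 scale). In such whole-tissue samples fewer cells of a type and less RNA per cell cannot be told apart. The tests weigh a change against the spread between rats of a group, and the labels number the rats individually. That spread does not cover a difference between the experiments or kits.

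At the top doses, 9 of the 10 members stood higher and 1 lower at 3-methylfuran 1.0, and 8 stood lower and 1 higher at furan 2.0. Over all genes, 21.2% were called higher and 22.5% lower at 3-methylfuran 1.0, and 24% higher and 22.5% lower at furan 2.0, at a Benjamini-Hochberg adjusted p under 0.05 in edgeR's quasi-likelihood test. The effects of the top doses differed for all 10 members, as the choice required, where 7.23% of genes had such a difference. The sides of 0 on which the furan values fall depend on the scaling. With library size alone, the furan 2.0 values of Magi3 (0.05), Dennd4a (0.14), Tent2 (0.03), Kdm6a (0.21) and Fermt2 (0.16) turned positive on the log2 scale, while Mest (-0.09), Nav2 (-0.20) and Homer1 (-0.04) had values nearer to 0, and none of the 8 was called lower. Under the same change of scaling the 3-methylfuran 1.0 values of the 9 higher members ranged from 0.48 to 1.34, Adamtsl2 stayed lower at -0.57, and every difference between the top doses kept its sign, from -1.43 for Mest to 2.79 for Adamtsl2. For all 8 members that stood lower, a called fall below control thus rests on reading the furan livers relative to their typical gene. The side of 0 itself held under both scalings for Mest, Nav2 and Homer1. The sign of the difference between the compounds did not depend on that reading for any member.

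**Figure D1:**
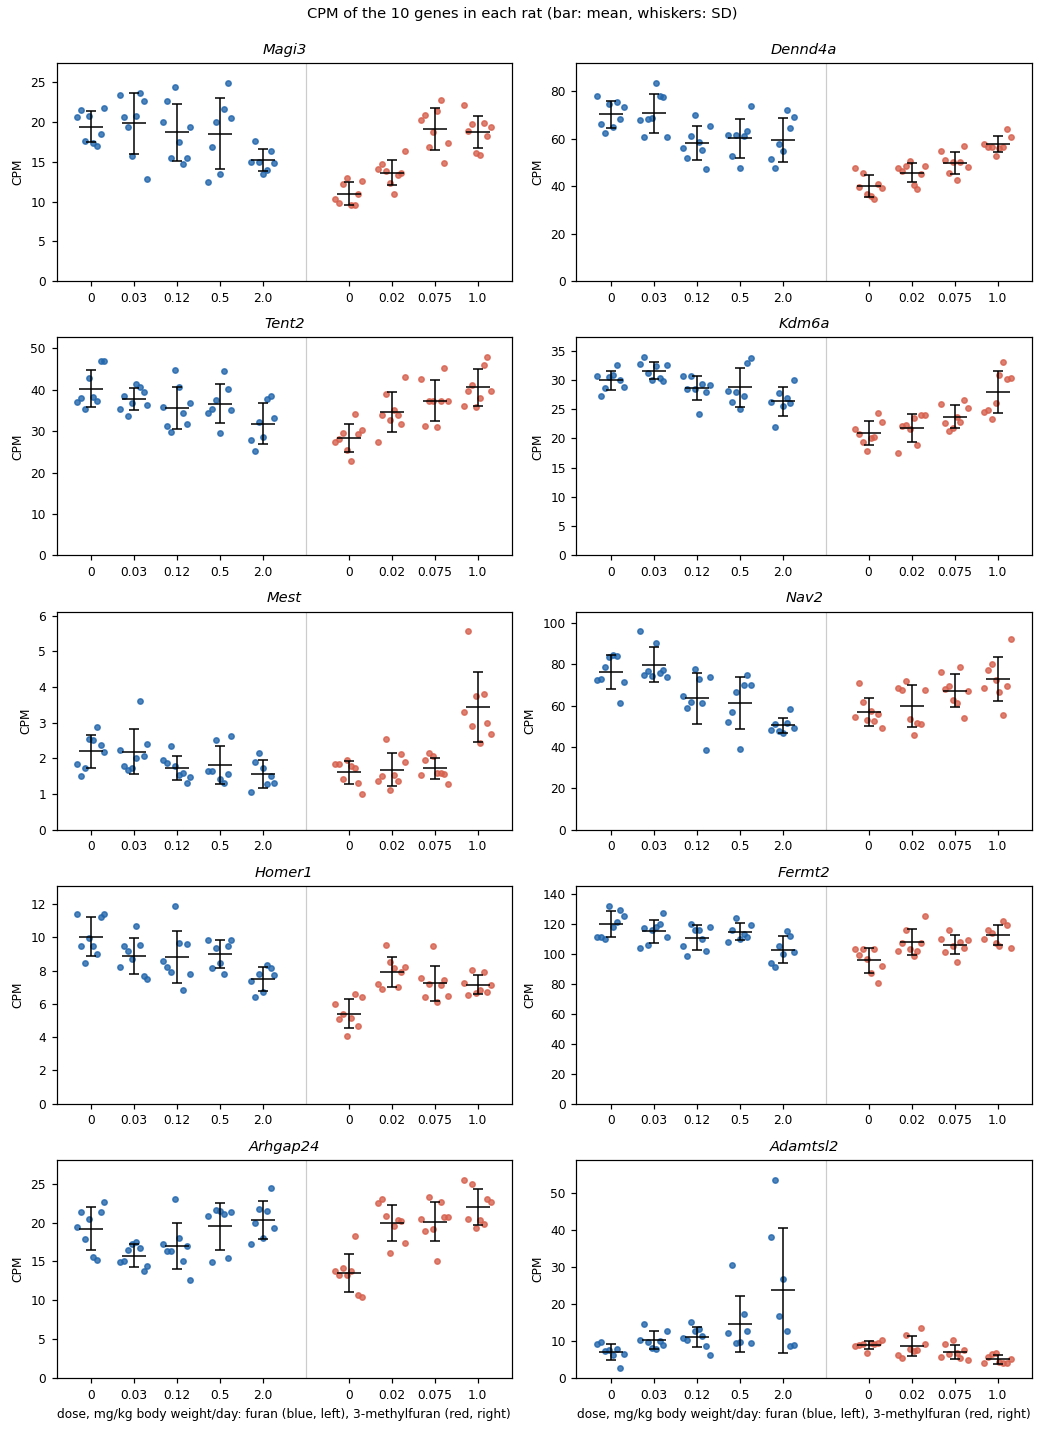
Level of each gene in every rat (vertical axis, CPM after TMM scaling within each experiment) by dose (horizontal axis, mg/kg body weight/day). Points are rats, bars are group means and whiskers are SD. Magi3 in 3-methylfuran controls lies at 9.5 to 13 CPM and in the 0.075 group at 14.8 to 22.7 CPM. All 8 Mest values at 3-methylfuran 1.0 lie above every control, and Adamtsl2 spreads from 8.73 to 53.6 CPM at furan 2.0.

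Magi3 was the member with a step between the lower doses of 3-methylfuran. Its level was 9.5, 10.6 and 13 CPM (lowest, median, highest rat) in the 3-methylfuran controls, 11, 13.7 and 16.3 CPM at 0.02, 14.8, 19.4 and 22.7 CPM at 0.075, and 15.8, 19 and 22.1 CPM at 1.0. All 8 rats at 0.075 and all 8 at 1.0 were above every control, and the 0.075 and 1.0 groups overlapped throughout. The change at 0.075 over control was 0.80 ± 0.09 on the log2 scale (SE, n = 8 and 8, edgeR adjusted p = 8.23e-07), and at 1.0 it was 0.77 ± 0.09. The step from 0.02 to 0.075, which uses neither the controls nor the top doses, was 0.49 ± 0.09 (edgeR adjusted p = 0.0118). Using only the first sequencing run of each rat the step was 0.51 with an adjusted p of 0.228, and fitting these groups alone gave an adjusted p of 0.0564. In the furan experiment Magi3 averaged 19.4 ± 1.96 CPM (SD, n = 8) in controls, 19.8 ± 3.83 at 0.03, 18.7 ± 3.54 at 0.12 and 18.5 ± 4.49 (n = 7) at 0.5. Those groups overlapped. At furan 2.0 it averaged 15.2 ± 1.37 CPM (n = 7), with 6 of 7 rats below every control, a log2 value of -0.35 that was 0.05 with library size alone.

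The group means of Dennd4a and Kdm6a were higher at each further dose of 3-methylfuran. Dennd4a, the Rab10 exchange factor, averaged 40 ± 4.67 CPM (SD, n = 8) in 3-methylfuran controls, 45.7 ± 4.14 at 0.02, 49.9 ± 4.6 at 0.075 and 57.5 ± 3.37 at 1.0. The 1.0 rats (52.8 to 64 CPM) all lay above the controls (34.6 to 47.8 CPM), and 6 of 8 rats at 0.075 did. The change at 0.075 was 0.32 ± 0.07 (edgeR adjusted p = 0.00621). With furan, Dennd4a averaged 70.3 ± 5.7 CPM in controls, 70.6 ± 8.21 at 0.03, 58.1 ± 7.19 at 0.12, 60.1 ± 8.3 at 0.5 and 59.6 ± 9.22 at 2.0. The lower level was reached at 0.12 and did not go further with dose. It did not pass the test at 0.12 (-0.27 ± 0.09, adjusted p = 0.0949), although leaving out rat 45 of that group gave -0.32 with an adjusted p of 0.0366. Kdm6a, the histone demethylase, averaged 20.9 ± 2.04 CPM in 3-methylfuran controls, 21.7 ± 2.4 at 0.02, 23.7 ± 1.99 at 0.075 and 27.9 ± 3.63 at 1.0. Above every control were 7 of 8 rats at 1.0 and 3 of 8 at 0.075, and 1 of 8 at 0.02 was below every control. In furan rats Kdm6a stayed between group means of 26.3 and 31.6 CPM, and its value at 2.0 was -0.18 ± 0.06, or 0.21 with library size alone.

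Tent2, the cytoplasmic poly(A) polymerase, had a higher group mean at each further dose of 3-methylfuran. It averaged 28.4 ± 3.39 CPM (SD, n = 8) in 3-methylfuran controls, 34.6 ± 4.75 at 0.02, 37.4 ± 4.87 at 0.075 and 40.6 ± 4.38 at 1.0. At 0.075 the change over control was 0.40 ± 0.09 (edgeR adjusted p = 0.00905), with 6 of 8 rats above every control. Using only run 1 it was 0.36 with an adjusted p of 0.0744. In the furan experiment the groups overlapped, from 35.3 to 46.9 CPM in controls and from 25.1 to 38.4 CPM at 2.0, where 5 of 7 rats were below every control.

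Mest, the imprinted gene, stood higher at 3-methylfuran 1.0 and lower at furan 2.0. Its levels are low, with 14 to 95 counts per rat, so the precision is limited. In 3-methylfuran rats it was 1.01 to 1.94 CPM in controls, 1.12 to 2.54 CPM at 0.02 and 1.29 to 2.16 CPM at 0.075, and these groups overlapped. At 1.0 the lowest, median and highest rats were at 2.43, 3.14 and 5.56 CPM, all above every control, and the log2 value was 1.08 ± 0.17. The 0.075 value was 0.06 with a 95% interval from -0.30 to 0.41. With furan, the means went from 2.19 ± 0.462 CPM (SD, n = 8) in controls to 1.56 ± 0.389 CPM (n = 7) at 2.0, with 4 of 7 rats below every control. That log2 value was -0.49 ± 0.18, but -0.09 with library size alone and -0.10 with run 1 only. The neighbouring gene Copg2, a coat protein subunit of Golgi vesicles, did not share the increase. Its value at 3-methylfuran 1.0 was 0.01 ± 0.05 (edgeR adjusted p = 0.9), or 0.26 with library size alone, where the typical gene stood at 0.25.

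Nav2, the navigator protein, had lower medians in the furan groups from 0.12 upward than in controls. Its lowest, median and highest rats were at 61.3, 75.7 and 84.6 CPM in controls, 73.8, 76.3 and 95.9 CPM at 0.03, 38.4, 63 and 77.6 CPM at 0.12, 39, 66.6 and 74.8 CPM at 0.5, and 46.8, 49.1 and 58.1 CPM at 2.0. All 7 rats at 2.0 were below every control, while 3 of 8 at 0.12 and 3 of 7 at 0.5 were. Neither lower dose passed the test over control in edgeR (-0.26 ± 0.11 at 0.12, adjusted p = 0.237, and -0.31 ± 0.11 at 0.5, adjusted p = 0.116). From 0.03 to 0.5 the change was -0.38 ± 0.11 (adjusted p = 0.078), and it passed with DESeq2 (adjusted p = 0.0475) and without rat 71 of the 0.5 group (-0.43, adjusted p = 0.048). In the 3-methylfuran experiment the group means went from 56.8 ± 6.89 CPM in controls to 72.8 ± 10.8 CPM at 1.0 (SD, n = 8). That increase overlapped the controls, with 4 of 8 rats above the highest control.

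Homer1 and Arhgap24 had higher medians than their 3-methylfuran controls already at the lowest dose and changed little afterwards. Homer1 was at 4.05, 5.25 and 6.58 CPM (lowest, median, highest) in these controls, 6.91, 8.03 and 9.53 CPM at 0.02, 6.1, 7.17 and 9.5 CPM at 0.075 and 6.55, 6.98 and 8.04 CPM at 1.0. All 8 rats at 0.02 were above every control. The change at 0.02 was 0.54 ± 0.10 (edgeR adjusted p = 0.0127), and without rat MA524L of that group it was 0.50 with an adjusted p of 0.0524. At 0.075 it was 0.40 ± 0.09 (edgeR adjusted p = 0.0174). That call was lost with run 1 only (adjusted p = 0.128), with only those groups in the fit (0.0797) and without control rat MC507L (0.0501). Arhgap24 was at 10.4, 13.6 and 18.3 CPM in controls, 16.1, 20.3 and 23 CPM at 0.02, 15.1, 20.5 and 23.3 CPM at 0.075 and 19.3, 21.5 and 25.5 CPM at 1.0. At 0.02 Arhgap24 overlapped its controls, with 6 of 8 rats above every control. Its changes at 0.02 and 0.075 were 0.56 ± 0.10 (edgeR adjusted p = 0.0127) and 0.57 ± 0.09 (adjusted p = 5.93e-04). With run 1 alone the 0.02 calls of Homer1 and Arhgap24 were lost (adjusted p = 0.417 and 0.241), as they were when the 2 groups were fitted alone (0.0655 for both). In the furan experiment Homer1 averaged 10.1 ± 1.17 CPM in controls and 7.5 ± 0.725 CPM at 2.0, all 7 rats below every control. Arhgap24 is the exception among the 10, since its furan 2.0 value was 0.08 ± 0.10 and so not opposite in sign. Its lowest furan group was 0.03, at 15.8 ± 1.43 CPM against 19.2 ± 2.81 CPM in controls (-0.29 ± 0.10, edgeR adjusted p = 0.313).

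Fermt2, the integrin activator, had the highest CPM of the members and, at 3-methylfuran 1.0, the smallest log2 value (0.23 ± 0.05). It averaged 95.5 ± 8.33 CPM (SD, n = 8) in 3-methylfuran controls and 112 ± 6.53 CPM at 1.0, and 120 ± 8.65 CPM in furan controls and 103 ± 8.89 CPM (n = 7) at 2.0. The 3-methylfuran values at 0.02 and 0.075 were 0.17 ± 0.05 and 0.15 ± 0.05, and neither passed the test (edgeR adjusted p = 0.398 and 0.192).

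Adamtsl2, the microfibril-binding protein, was the only member with the reverse pattern, higher with furan and lower with 3-methylfuran. In the furan experiment its lowest, median and highest rats were at 2.83, 7.42 and 9.62 CPM in controls, 7.91, 9.78 and 14.6 CPM at 0.03, 6.29, 11.1 and 15.2 CPM at 0.12, and 9.4, 12.3 and 30.5 CPM at 0.5. At 2.0 the 7 rats were at 38.2, 53.6, 16.7, 26.7, 12.8, 8.73 and 9.02 CPM. Of those, 5 were above every control, and 2 were within the control range. The value at 0.5 over control was 1.04 (95% interval from 0.38 to 1.69, edgeR adjusted p = 0.0666), which did not pass the test here. It passed with DESeq2 (adjusted p = 0.0288), and the authors' deposited table gives a 1.73-fold increase with an adjusted p of 0.0327. The deposited folds lie nearer to 1 than those fitted here (1.73 beside 2.05 at 0.5, and 1.02 beside 1.56 at 0.12), so their sizes are not like for like. With 3-methylfuran the level was 6.75 to 10.2 CPM in controls, 5.49 to 13.6 CPM at 0.02, 4.77 to 10.3 CPM at 0.075 and 3.98 to 6.78 CPM at 1.0. At 1.0, 7 of 8 rats were below every control (-0.83 ± 0.16). The change at 0.075 was -0.37 ± 0.16 (edgeR adjusted p = 0.273).

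The furan rats with high Adamtsl2 were also those with high Col1a1, a fibrillar collagen of activated stellate cells. In the order of the Adamtsl2 values given for furan 2.0, Col1a1 was at 185, 183, 86, 108, 12.1, 9 and 13.7 CPM. The 4 rats with the highest Adamtsl2 were the 4 with the highest Col1a1. At furan 0.5 the rat at 30.5 CPM of Adamtsl2 had 91 CPM of Col1a1, and the one at 17.2 CPM had 36.2 CPM, while the other 5 rats had 6.65 to 10.9 CPM of Col1a1. Over the stellate list (9 markers, none at 0 in all rats), 5 were called higher and 1 lower at furan 2.0, beside 24% and 22.5% of all genes, and 0 of 8 tested at 3-methylfuran 1.0. Their summed level was 228 to 945 CPM at furan 2.0 against 226 to 372 CPM in controls, and 145 to 206 CPM at 3-methylfuran 1.0 against 160 to 184 CPM. Over the cholangiocyte list of 6, 5 were called higher at furan 2.0, beside the same 24%, with a sum of 17.7 to 68.5 CPM against 6.4 to 12.7 CPM in controls. At 3-methylfuran 1.0 that sum was 19.1 to 28 CPM against 7.23 to 10.9 CPM in controls, but of 3 tested Epcam was called higher (1.69), Krt7 lower (-1.36) and Krt19 neither (-0.50). Of 6 endothelial markers tested, 3 were called lower and 0 higher at furan 2.0, beside 22.5% and 24% of all genes. At 3-methylfuran 1.0, 1 of these was called lower. Of 6 macrophage markers 0 were called at either top dose. The part of these cell types in the Adamtsl2 values, or in those of the other members, was not tested.

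**Figure D2:**
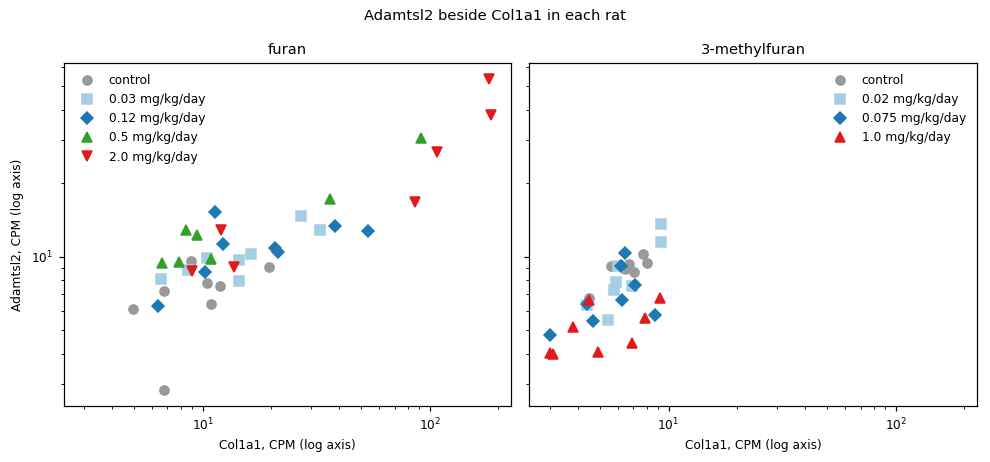
Adamtsl2 (vertical axis) against Col1a1 (horizontal axis) in each rat, both in CPM on log axes, with furan on the left and 3-methylfuran on the right; symbols are dose groups. In the furan experiment the 4 rats at 2.0 with Adamtsl2 from 16.7 to 53.6 CPM have Col1a1 from 86 to 185 CPM. The 3-methylfuran 1.0 rats lie low in Adamtsl2 (3.98 to 6.78 CPM). Their Col1a1 (3 to 9.18 CPM) spans the range of their controls (4.47 to 8.03 CPM).

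With furan, none of the 10 was called at 0.03, 0.12 or 0.5 over control in edgeR, where 0.0707%, 1.94% and 3.16% of genes were. At an unadjusted p under 0.05 there were 2, 5 and 3 members, beside 1162, 1774 and 2182 of all 12727 genes. DESeq2 called 0, 0 and 1 members, beside 49, 368 and 596 genes. With 3-methylfuran, 2 members (Homer1 and Arhgap24) were called at 0.02 beside 0.0335% of genes, 4 genes in all. At 0.075 there were 5 (Magi3, Dennd4a, Tent2, Homer1 and Arhgap24), all higher, beside 1.37% of genes. The median change of the 10 members at 0.075 was 0.28, and that of all genes was 0. At furan 0.12 these medians were -0.18 and 0. All these counts and medians over control share their control rats with the values that chose the members. They are thus not independent of that choice.

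The difference between the compounds at the lower doses was fitted over all 70 rats, and its values are a description, since differing effects chose the members. At the lowest doses, 0.03 of furan and 0.02 of 3-methylfuran, the values of Homer1 (-0.73 ± 0.13) and Arhgap24 (-0.85 ± 0.14) were past edgeR's threshold, as were 0.495% of all genes. At 0.12 of furan and 0.075 of 3-methylfuran 6 members were, beside 2.53% of genes. These were Magi3 (-0.86 ± 0.16), Arhgap24 (-0.75 ± 0.14), Dennd4a (-0.59 ± 0.11), Homer1 (-0.59 ± 0.13), Tent2 (-0.57 ± 0.12) and Fermt2 (-0.26 ± 0.08). Fermt2 lay at the threshold and was lost in 4 of the other settings and on leaving out any of 18 single rats. Nav2 (-0.49 ± 0.15) lay just outside it, and was past it with DESeq2, with limma voom and on leaving out any of 7 single rats. Adamtsl2 was at 1.02 ± 0.37.

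**Figure D3:**
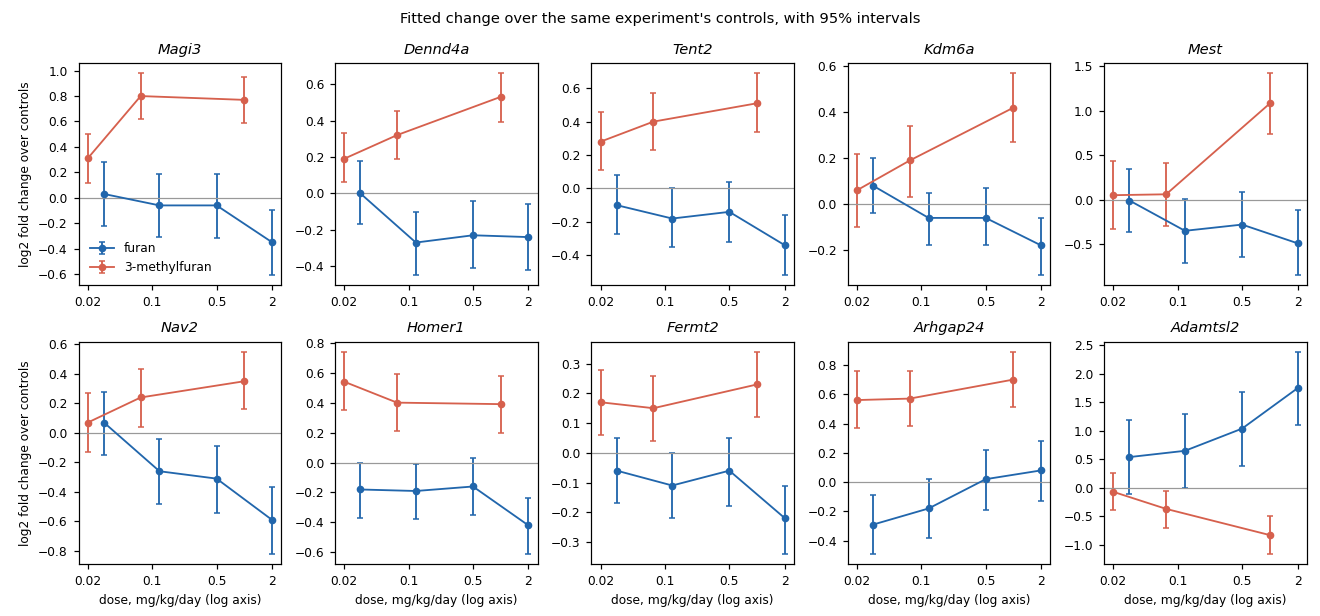
Fitted log2 fold change over the controls of the same experiment (vertical axis) against dose on a log axis (horizontal axis, mg/kg/day), with 95% intervals; furan in blue, 3-methylfuran in red. Magi3 with 3-methylfuran reaches 0.80 at 0.075 and 0.77 at 1.0, Mest is at 1.08 at 3-methylfuran 1.0 and -0.49 at furan 2.0, and Homer1 and Arhgap24 are already at 0.54 and 0.56 at 0.02. With library size alone the furan 2.0 points of Magi3, Dennd4a, Tent2, Kdm6a and Fermt2 lie above 0.

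Contrasts among the dosed groups below the top doses share no rat with the controls or the top doses. The choice of the members names no dose, however, so these rats may also have entered it. Independence of the calls below from that choice is therefore not established. None of the 10 was called from furan 0.03 to 0.12 or from 0.03 to 0.5 in edgeR, where 0.0707% and 0.998% of genes were. At an unadjusted p under 0.05 there were 3 and 4 members, beside 864 and 1677 genes, and DESeq2 called 0 and 1 members, beside 31 and 245 genes. From 3-methylfuran 0.02 to 0.075 only Magi3 was called, with Usp2, Nr1i2 and Cdc42ep3 the other genes among 0.0335%. The change from furan 0.03 to 0.5 minus that from 3-methylfuran 0.02 to 0.075 was called for 0 members, beside 0.224% of genes, with 6 members and 1072 of 12941 genes at an unadjusted p under 0.05. Magi3 (-0.59 ± 0.16, adjusted p = 0.0919) and Nav2 (-0.55 ± 0.15, adjusted p = 0.0989) came nearest, and DESeq2, which called 79 genes in place of 29, called Magi3 (adjusted p = 0.0481), as did edgeR without rat 30 of furan 0.03 (adjusted p = 0.0253) or rat 71 of furan 0.5 (adjusted p = 0.0278). Dennd4a (-0.36 ± 0.11), Kdm6a (-0.26 ± 0.10), Tent2 (-0.16 ± 0.13), Mest (-0.27 ± 0.25) and Adamtsl2 (0.81 ± 0.37) lay on the same side as at the top doses. Arhgap24 (0.30 ± 0.14), Homer1 (0.17 ± 0.13) and Fermt2 (0.02 ± 0.08) lay on the other side, and none of these passed.

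The controls of the 2 experiments differed for several members, which bears on any effect measured over them. In the fit of all 70 rats the furan controls exceeded the 3-methylfuran controls by 0.75 for Homer1, 0.68 for Magi3 and 0.67 for Dennd4a on the log2 scale, where the median absolute gap over all genes was 0.23. For Kdm6a, Tent2, Arhgap24, Mest, Nav2 and Fermt2 the gap was 0.18 to 0.38 in the same direction, and for Adamtsl2 it was -0.48. All 9 genes that were higher with 3-methylfuran thus started lower in its controls. The same controls enter the effects that chose the members, so the directions of these gaps are not independent of the choice. The part of the kit or of the control rats in the gaps was not tested. When the lowest dose of each compound replaced the controls as reference, the top-dose difference held its size for Kdm6a (-0.63 beside -0.61), Nav2 (-0.96 beside -0.96) and Mest (-1.52 beside -1.58). It was smaller but passed the threshold for Magi3 (-0.86 beside -1.13), Dennd4a (-0.59 beside -0.77), Tent2 (-0.49 beside -0.87) and Adamtsl2 (1.95 beside 2.57). For Homer1 it was -0.10 (95% interval from -0.36 to 0.16), for Arhgap24 0.21 (from -0.07 to 0.49) and for Fermt2 -0.24 (from -0.39 to -0.08, above the threshold after adjustment). With this reference 3.89% of all genes were past the threshold and 7 of the members. The top-dose rats here are those that chose the members, so this count is a description. Between the controls and the lowest doses the difference was -0.73 for Homer1, -0.85 for Arhgap24 and -0.23 for Fermt2. Among the dosed furan groups Arhgap24 went the other way, with 0.36 ± 0.10 from 0.03 to 2.0, beside 0.14 ± 0.09 from 3-methylfuran 0.02 to 1.0.

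**Figure D4:**
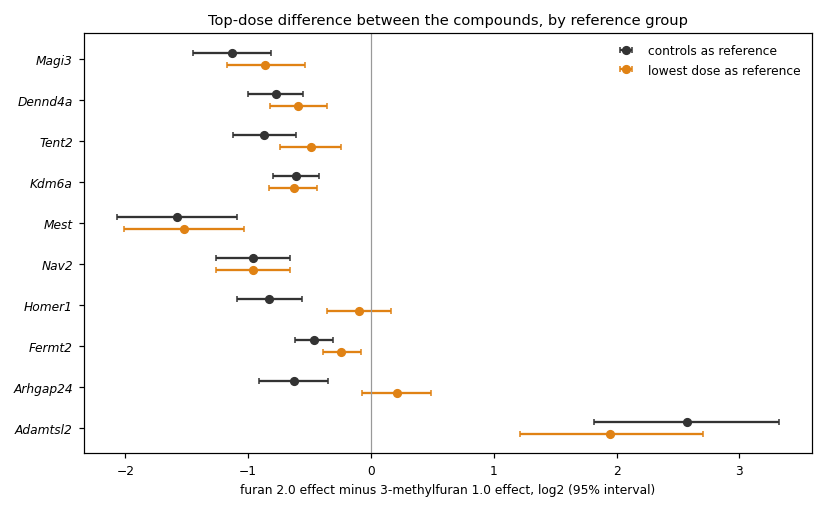
Difference between the effects of furan 2.0 and 3-methylfuran 1.0 (horizontal axis, log2, with 95% intervals) for each gene (vertical axis), with each experiment's controls (black) or its lowest dose (orange) as reference. Homer1 moves from -0.83 to -0.10 and Arhgap24 from -0.63 to 0.21, while Mest, Nav2 and Kdm6a stay in place.

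Within groups the members varied together only weakly from rat to rat. After the mean of each of the 9 groups was removed, the 45 pairs had a median Pearson correlation of 0.13 over 70 rats, from -0.32 to 0.61, beside a median of 0 for pairs of genes taken at regular steps through the table. Both genes of a pair are measured in the same libraries, so the correlations describe the data. Of the member pairs 4.44% were over 0.5, beside 0.73% of the pairs taken at regular steps. The closest pair was Tent2 and Fermt2 (0.61), followed by the chromosomal neighbours Tent2 and Homer1 (0.51). Fermt2 and Tent2 also had the same nearest gene outside the list, the stress kinase Mapk9 (0.68 and 0.67). The nearest genes were Dsg2, a desmosomal cadherin, for Magi3 (0.55), Man1a2, a Golgi mannosidase, for Dennd4a (0.61), Tm9sf3 for Kdm6a (0.72), Ntn1, a netrin, for Mest (0.50), Mical3 for Nav2 (0.68), the nuclear receptor Hnf4g for Homer1 (0.62) and Zfp395 for Arhgap24 (0.59). Adamtsl2 had the closest of all, the microfibrillar collagens Col6a2 (0.88) and Col6a1 (0.86) and the Wnt antagonist Sfrp1 (0.83). For Col6a2 the correlation was 0.92 in furan rats and 0.75 in 3-methylfuran rats. Across the nearest genes it ran from 0.56 (Man1a2 with Dennd4a) to 0.92 in furan rats. In 3-methylfuran rats it ran from 0.23 (Dsg2 with Magi3, 0.70 in furan rats) to 0.83 (Tm9sf3 with Kdm6a).

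Relatives and partners of the members were taken as lists, and the counts that differ between the top doses stand beside 7.23% of all genes. Of 13 tested ADAMTS-like and microfibril genes, 8 were called higher and 0 lower at furan 2.0, beside 24% and 22.5% of all genes (11 higher with library size alone), with a median of 0.45 against 0.02 for all genes. Among them were Ltbp2 (1.65 ± 0.35), a latent TGF-beta binding protein, Mfap2 (1.60 ± 0.45), Fbn1 (1.09 ± 0.27), the fibrillin that Adamtsl2 binds, and Eln (0.75 ± 0.26), elastin. At 3-methylfuran 1.0 only Ltbp4 and Fbn1 were higher and Eln (-0.99 ± 0.20) lower of 12 tested. The top doses differed for 5 of the 13 (Ltbp1, Ltbp2, Ltbp3, Mfap2 and Eln), all higher with furan, from 0.91 ± 0.30 to 2.61 ± 0.68. Of the stellate markers 5 of 9 were called higher in the same furan group, as given above, and their part in this list was not tested. The 11 junction partners of Magi3 had a median of -0.24 at furan 2.0 (3 lower, 1 higher), or 0.15 with library size alone, and of 0.11 at 3-methylfuran 1.0 (4 higher, 1 lower). Their median difference was -0.33, against 0 for all genes. Among them the top doses differed for 2, the tight junction proteins Tjp1 (-0.45 ± 0.13) and Cgn (-0.47 ± 0.13), both lower with furan, and for 0 with library size alone. Magi1, the closest relative of Magi3, was at -0.24 ± 0.07 at furan 2.0 (0.15 with library size alone) and -0.14 at 3-methylfuran 1.0, so it was not opposite. Nav3, a relative of Nav2, was lower with both compounds (-0.99 ± 0.13 with furan and -0.99 ± 0.25 with 3-methylfuran), also with library size alone. Of the KDM6A complex and H3K27 enzymes, 1 of 12 differed between the top doses (Pagr1, 0.80 ± 0.23). Among DENN exchange factors, with Rab10 counted among them, 0 of 10 did in edgeR, also with library size alone. Of 9 poly(A) polymerases and other poly(A) tail genes (Parn and Cpeb4 included), Tut1 (0.41 ± 0.13) and Tut7 (-0.33 ± 0.10) differed, the latter not with library size alone. Of 8 Homer partners the inositol trisphosphate receptor Itpr3 differed (0.97 ± 0.29), and of 12 kindlin and integrin partners Lims2 (-0.66 ± 0.17). Of 9 imprinted genes (10 entries, since Gnas has 2), 1 differed, the Mest neighbour Copg2 (-0.30 ± 0.08); with library size alone it was -0.15 and did not pass, and 2 other entries were higher with furan.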

How the data were processed

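Reads were aligned with STAR 2.7.1a to Rnor 6.0 and counted with featureCounts 2.0.0, per the submitters' processing notes; which annotation release and strand setting they used is not given in the sources used here. Tables deposited by the authors hold raw counts per gene and sequencing run. The authors' deposited comparison tables give adjusted p-values and a fold change per dose, written as a ratio for 3-methylfuran and as a signed fold for furan; their use of DESeq2 1.26.0 is per the submitters' processing notes. The array data were not analysed here.

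Members, lists and tests were chosen with earlier results of these data known, and every member was fitted in every comparison. The 172 runs (2 per furan rat, 3 per 3-methylfuran rat) were summed to 70 rats. Runs of a rat agreed within sampling noise (chi-square per degree of freedom 1 to 1.07, and at least 6.15 between rats). edgeR 4.0.16 (R 4.3.3) quasi-likelihood tests used TMM scaling and filterByExpr with a minimum count of 10, within each experiment (12727 and 11930 genes) and over all rats (12941 genes) for differences of effects, with Benjamini-Hochberg adjustment at 0.05 over all genes. Errors after a log2 value are standard errors. Symbols came from the deposited comparison tables, and promoters and gene neighbours from RefSeq on GRCr8, whose gene coordinates were not transferred. For each member the genes with the highest within-group Pearson correlation of log2 CPM (prior count 2) were named. Alternatives were DESeq2 1.42.0, limma 3.58.1 voom, other scalings, no filter, run 1 only, only the groups compared, and each rat left out. The scripts were tested on simulated data.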

Additional observations from a re-analysis of the deposited data

Results flagged for a closer look

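In 7 of 90 member-by-group sets a rat lay far from the others of its group; chance alone gives about 1 in 20 of such sets. Nav2 in rat 89 at furan 2.0 was at 58.1 CPM (the other rats 46.8 to 51.4), and Kdm6a in rat 46 at furan 0.12 was at 24.2 CPM (27.9 to 30.7). Mest was at 3.61 CPM in rat 27 at furan 0.03 (1.68 to 2.4) and at 5.56 CPM in rat ME583L at 3-methylfuran 1.0 (2.43 to 3.81). Homer1 was at 9.5 CPM in rat MB546L at 3-methylfuran 0.075 (6.1 to 7.57). Adamtsl2 was at 30.5 CPM in rat 63 at furan 0.5 (9.4 to 17.2), the rat with the highest Col1a1 of that group, and at 6.75 CPM in control rat MC507L of the 3-methylfuran experiment (8.68 to 10.2).

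Values past edgeR's threshold for a difference between the compounds occurred at the lower doses, which are not equal between the compounds. They are a description, since differing effects chose the members. At the lowest doses the difference, furan minus 3-methylfuran, was -0.73 for Homer1 and -0.85 for Arhgap24 on the log2 scale. At 0.12 of furan and 0.075 of 3-methylfuran it was -0.86 for Magi3, -0.59 for Dennd4a, -0.57 for Tent2, -0.59 for Homer1, -0.26 for Fermt2 and -0.75 for Arhgap24. All are measured over the controls of each experiment.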

How the results depend on the processing

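With library size alone, the values at furan 2.0 over control changed sign for Magi3 (0.05), Dennd4a (0.14), Tent2 (0.03), Kdm6a (0.21) and Fermt2 (0.16). Furan 2.0 over furan 0.03 changed sign for Dennd4a (0.12), Tent2 (0.12), Kdm6a (0.12), Homer1 (0.13) and Fermt2 (0.21). For Homer1, 3-methylfuran 1.0 over 0.02 became 0.11 (0.00 with run 1), and the top-dose difference over the lowest doses became 0.03. This scaling does not hold the median gene at 0. Over control the median stood at 0.42 at furan 2.0 and at 0.25 at 3-methylfuran 1.0, but at 0.01 at furan 0.03.

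DESeq2 called 1 member in place of 0 at furan 0.5 over control, at furan 0.5 over 0.03 and in the difference of furan 0.5 over 0.03 and 3-methylfuran 0.075 over 0.02; over all genes it called 596, 245 and 79 in place of 402, 127 and 29. With run 1 only, which holds fewer reads, 0 in place of 2 members were called at 3-methylfuran 0.02, 3 in place of 5 at 0.075, and 0 in place of 1 from 0.02 to 0.075; over all genes 0, 119 and 2 were called in place of 4, 163 and 4. With only the groups compared, 0 were called at 3-methylfuran 0.02 and 0 from 0.02 to 0.075 (0 and 2 of all genes); the cause was not tested.

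Leaving out each rat in turn, the number called ranged from 0 to 1 at furan 0.12, from 0 to 1 from furan 0.03 to 0.5, from 1 to 2 at 3-methylfuran 0.02, from 4 to 5 at 0.075, from 0 to 1 in the difference that uses no controls, and from 5 to 7 in the difference at the middle doses. It did not change at furan 0.03 (0 to 0), furan 0.5 (0 to 0), from furan 0.03 to 0.12 (0 to 0), from 3-methylfuran 0.02 to 0.075 (1 to 1) and in the difference at the lowest doses (2 to 2). Low counts limit Mest most. No paired analysis was possible because the rat numbers are not shared between groups.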
